A study of Mus musculus with 9 samples.

Results

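Osteoclast differentiation and acid secretion were followed through 9 genes, Tnfrsf11a, Nfatc1, Dcstamp, Ocstamp, Atp6v0d2, Tcirg1, Clcn7, Ctsk and Acp5, taken by gene name from a table of raw read counts with 51826 rows. All 9 were present, each on a row of its own, and all 9 were among the 15429 genes that passed the filter on low counts. The RNA came from mouse BMMs (macrophages differentiated in vitro out of bone marrow precursors), in 3 groups of 3 libraries. The control group was untreated BMMs. The CM group had received K7M2 conditioned medium for 48 h, K7M2 being a mouse osteosarcoma line, and the CM plus DTM group the same medium with DTM for the same time. DTM is not spelled out in the labels, which name no mouse strain or age, and give neither a culture time nor a medium for control, so the effect of CM and that of time or medium cannot be told apart. Nothing in the labels places the libraries of a group in separate cultures or animals, and the p-values therefore reflect no more than library-to-library spread, possibly technical.

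Osteoclasts are the cells that dissolve bone, and they form when macrophage precursors receive M-CSF together with RANK ligand. RANK, encoded by Tnfrsf11a, signals to the transcription factor NFATc1, which switches on the fusion proteins DC-STAMP and OC-STAMP and the resorption genes. The fused cell seals off a patch of bone and acidifies it with a V-type proton pump and a chloride transporter, and the proteases and phosphatases it secretes then digest the matrix. Macrophages use related pumps and transporters to acidify their lysosomes.

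CPM values, counts divided by the TMM-adjusted library size, are given for the libraries in the order 1, 2, 3, and as mean ± SD over n = 3. The libraries held 43084296 to 50407973 counts. CM 1 and CM plus DTM 1 stood apart from their groups, with mean correlations of log2 CPM to the other libraries of the group of 0.940 and 0.927, against 0.949 to 0.982 for the other 7 libraries. All 8 genes of a macrophage list were detected in every library. Lyz2 alone had 20480 to 38710 CPM and the other 7 summed to 5195 to 7409 CPM, with Mertk the lowest at 32.7 to 106 CPM. Of 6 markers of mature osteoclasts outside the 9 genes, the calcitonin receptor gene Calcr had 0 counts in all 9 libraries, and Oscar and Siglec15 stayed below 1 CPM in each. Mmp9 was at 7.35 to 28.9 CPM, Itgb3 at 1.92 to 8.61 CPM, and Car2 at most at 0.163 CPM in control and at 0.158, 1.57 and 1.02 in CM. The list of 10 mesenchymal and osteoblast genes summed to 518 to 823 CPM in control, 130.2 to 536 in CM and 554 to 683 in CM plus DTM, and was lowest in CM 1. Col1a1 and Col1a2 made up most of this sum, and both were lowest in CM 1, at 63.1 and 48.2 CPM. Not all 10 genes followed it. Runx2, at 5.85 CPM, and Dcn, at 1.225 CPM, were within CM highest in CM 1. Alpl was at 1.19 to 3.03 CPM in control and at 0.0790, 4.86 and 5.75 in CM. Of a list of 10 neutrophil genes, Mmp8, singled out after its values were seen, was at 27.1 to 56.8 CPM in control, 355 to 780.4 in CM and 142 to 221 in CM plus DTM. The other 9 summed to 202 to 730 CPM in control, to 1.52, 259 and 285 in CM and to 354 to 1136 in CM plus DTM, so they were nearly absent from CM 1. The 2 lists of 6 genes for dendritic cells and for T and B cells summed to at most 1.05 and 0.703 CPM in any library. In bulk RNA, fewer cells of a type and less RNA per cell cannot be told apart.

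Promoters are shown for the 5 genes with a RefSeq entry, of which Tcirg1, Clcn7, Ctsk and Acp5 were higher in every CM library than in every control library and Tnfrsf11a was lower. Each run is the 250 bases before the most upstream start site that RefSeq lists (GRCm38.p6, whereas mm39 is the mouse build in the submitters' processing notes), written 5′ to 3′ in the direction of transcription. Capitals mark TCACGTG or TCATGTG, which transcription factors of the MITF and TFE family can bind, and TGANTCA, the AP-1 motif.

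Tcirg1 (chr19:3907134-3907383, minus strand): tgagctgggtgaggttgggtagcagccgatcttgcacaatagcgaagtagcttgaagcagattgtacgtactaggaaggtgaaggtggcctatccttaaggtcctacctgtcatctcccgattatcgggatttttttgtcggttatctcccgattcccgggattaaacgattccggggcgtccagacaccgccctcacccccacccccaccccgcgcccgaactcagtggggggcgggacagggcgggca

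Clcn7 (chr17:25133141-25133390, plus strand): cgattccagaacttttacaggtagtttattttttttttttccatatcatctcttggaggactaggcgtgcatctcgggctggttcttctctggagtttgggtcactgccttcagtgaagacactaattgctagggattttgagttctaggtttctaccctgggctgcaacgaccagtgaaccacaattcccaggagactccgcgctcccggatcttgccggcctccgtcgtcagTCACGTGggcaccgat

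Ctsk (chr3:95498960-95499209, plus strand): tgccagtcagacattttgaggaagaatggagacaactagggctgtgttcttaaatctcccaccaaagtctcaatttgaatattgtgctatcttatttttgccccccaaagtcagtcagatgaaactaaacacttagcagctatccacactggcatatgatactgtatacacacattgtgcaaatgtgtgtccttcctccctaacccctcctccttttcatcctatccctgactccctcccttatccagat

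Acp5 (chr9:22135747-22135996, minus strand): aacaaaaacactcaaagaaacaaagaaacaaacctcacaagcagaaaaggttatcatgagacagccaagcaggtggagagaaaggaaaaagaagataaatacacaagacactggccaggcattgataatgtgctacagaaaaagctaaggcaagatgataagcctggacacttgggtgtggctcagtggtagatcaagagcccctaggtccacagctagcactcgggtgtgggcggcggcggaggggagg

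Tnfrsf11a (chr1:105780473-105780722, plus strand): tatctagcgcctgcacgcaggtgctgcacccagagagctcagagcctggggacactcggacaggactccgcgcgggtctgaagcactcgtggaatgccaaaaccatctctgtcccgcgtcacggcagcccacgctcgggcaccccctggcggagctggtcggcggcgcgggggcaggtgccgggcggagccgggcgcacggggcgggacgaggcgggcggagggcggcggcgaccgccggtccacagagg

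Of these 5 runs only that of Clcn7 held a marked motif, TCACGTG at 16 bases before the start site. In the full window of 300 bases, which reaches 50 bases past the start, Clcn7 held TCACGTG again on both strands as overlapping matches at positions 7 and 8 after the start. Searched on both strands, TCACGTG was found in 3.77% of all 32851 windows in the table and in 1 of the 10 windows of the 5 genes with an entry. TCATGTG was likewise in 3.77% of all windows and in 2 of the 10, at later start sites of Clcn7 and Acp5, and TGANTCA in 7.81% of all and 0 of the 10. The NFAT core GGAAA, searched but not marked, was in 6 of the 10 and in 61.3% of all windows. The runs differ in base composition, with a GC content of 73.6% for Tnfrsf11a, 58% for Tcirg1, 50.4% for Clcn7, 48% for Acp5 and 43.2% for Ctsk. A match is a description of the letters and not of binding.

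The first question was how the macrophages of the CM group differed from control, where CM cannot be told apart from time or medium. The proton pump subunit genes Atp6v0d2 and Tcirg1, the collagen-degrading protease gene Ctsk and the phosphatase gene Acp5 rose, while Tnfrsf11a, the receptor at the head of the pathway, fell. Nfatc1, the fusion genes Dcstamp and Ocstamp and the chloride transporter gene Clcn7 did not pass the test. With p-values from the quasi-likelihood test of edgeR, adjusted by Benjamini-Hochberg over all genes tested, and a threshold of 0.05, 5 of the 9 genes changed, where 5.61% of all genes tested did. In the upward direction it was 4 of 9 against 4.04% of all genes, and downward 1 of 9 against 1.57%. The median log2 fold change of the 9 was 0.89 and that of all genes tested -0.01. Without overlap between the groups 5 of the 9 were higher and 1 lower, against 18.3% and 18.4% of all genes. The 9 genes were chosen with results of these libraries known, so this count is not independent of them. With total count scaling the median of all genes moved to -0.21 and the split of calls from 623 up and 242 down to 415 up and 464 down, and of the 9 genes 3 rose and 1 fell. In CM plus DTM against control that scaling moved the median of all genes to -0.24 and the split from 232 up and 146 down to 176 up and 273 down.

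**Figure D1:**
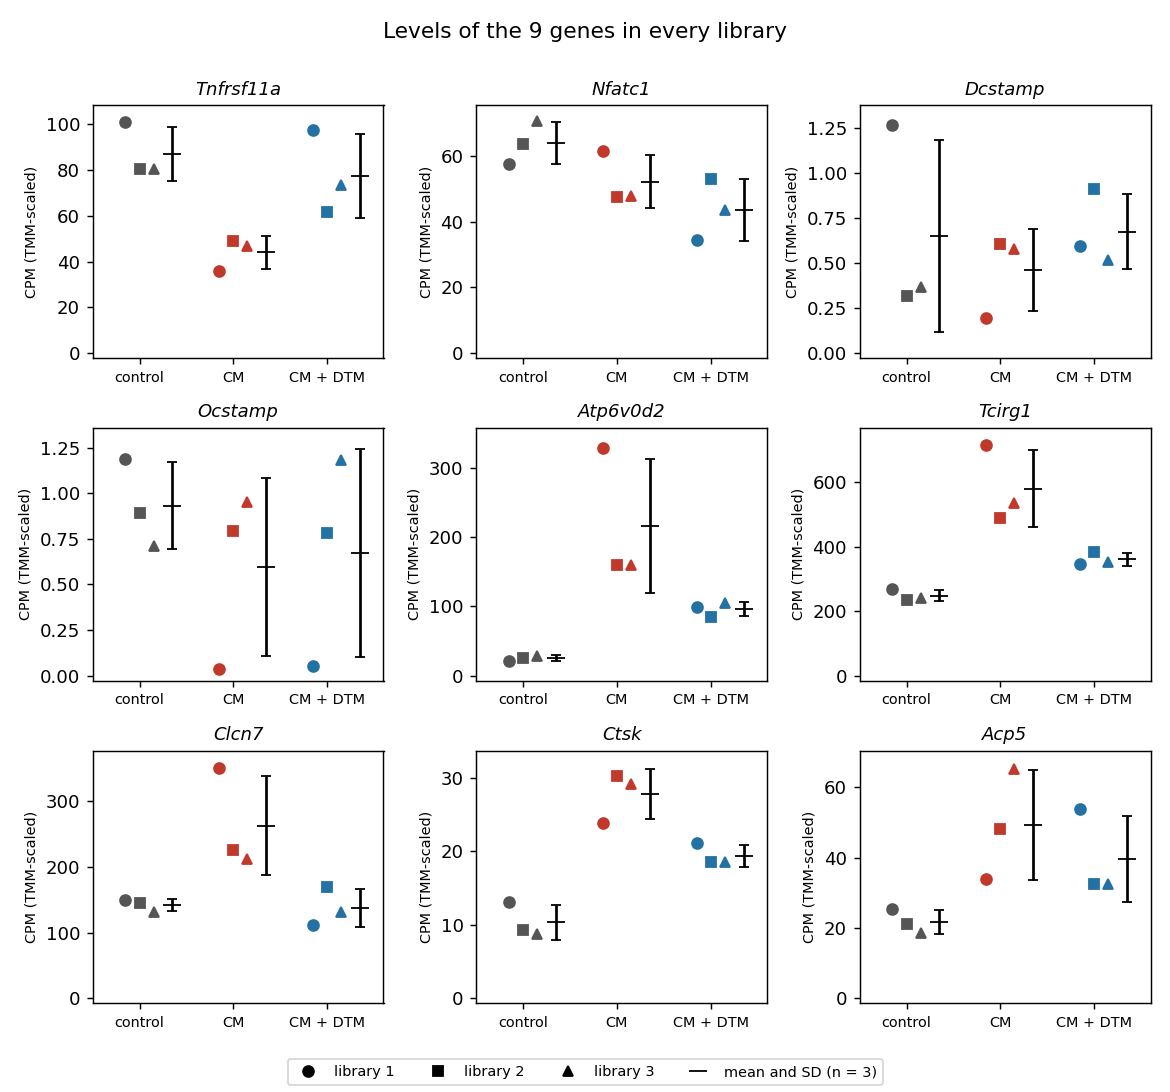
Level of each of the 9 genes (CPM, linear axes from 0) in the 3 libraries of each group, marked by library number, with the group mean and SD. Atp6v0d2 lay at 20.7 to 29.0 CPM in control, 159.6 to 328 in CM and 84.9 to 105 in CM plus DTM, with no overlap between groups.

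Among the signalling genes, Tnfrsf11a stood at 101, 80.3 and 80.3 CPM in control, was at 35.9, 49.1 and 47.0 with CM, and reached 97.4, 61.5 and 73.3 with CM plus DTM. Every CM library lay below every library of both other groups, and CM plus DTM overlapped control. The means were 87.2 ± 11.8, 44.0 ± 7.10 and 77.4 ± 18.3 CPM. Its log2 fold change in CM was -0.99 (SE 0.21, adjusted p = 0.0307), or 0.505 times control. The call was lost when control 1, 2 or 3, CM 1, 2 or 3 or CM plus DTM 3 was left out (adjusted p = 0.0594 to 0.122), with the fold change between -1.08 and -0.86.

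Nfatc1, the transcription factor that drives osteoclast gene expression, stood at 57.7, 63.7 and 70.6 CPM in control, 61.4, 47.4 and 47.7 with CM and 34.4, 53.1 and 43.4 in CM plus DTM. CM overlapped control through CM 1, and every CM plus DTM library lay below every control library. The log2 difference was -0.29 (SE 0.20, adjusted p = 0.44) for CM, while for CM plus DTM against control it was -0.55 (SE 0.20, adjusted p = 0.144).

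The ligand was scarce, and edgeR called neither it nor its decoy. Tnfsf11, which encodes RANK ligand, stood at 0.673 ± 0.0878 CPM in control, 1.14 ± 0.870 in CM and 1.23 ± 0.419 in CM plus DTM. It had 8 to 82 counts per library, fewest in CM 1. Tnfrsf11b, the decoy receptor osteoprotegerin, stood at 9.70 ± 3.56, 2.40 ± 1.85 and 6.25 ± 1.99 CPM. Its CM libraries all lay below every library of both other groups, and CM plus DTM overlapped control. The log2 difference of Tnfrsf11b in CM against control was -2.02 (SE 0.75, adjusted p = 0.157). Tnfrsf11b was lowest in CM 1 at 0.277 CPM, the library in which the mesenchymal list was also lowest, and the part of such cells in this level was not tested.

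Of 20 other genes of the RANK axis and its signalling, 1 rose and 0 fell in CM against control, near the 4.04% and 1.57% of all genes, with a median log2 fold change of -0.03. DESeq2 called 3 higher and 2 lower, against 1263 and 674 of all 15429 genes. In this list 5 had an unadjusted p under 0.05, against 3307 of all genes. By edgeR without CM plus DTM 1 it was 3 higher and 1 lower, against 1207 and 677 of all genes. The gene that rose was Mitf, a transcription factor of osteoclasts and melanocytes, from 22.4 ± 1.36 to 50.3 ± 9.61 CPM (log2 fold change 1.17, SE 0.26, adjusted p = 0.0323). It was higher in every CM library than in every control library, and its call was lost without any 1 of the 9 libraries other than CM plus DTM 1 or 2, reaching an adjusted p of 0.126. Csf1r, the receptor of M-CSF, averaged 2262 ± 403 CPM in control against 1407 ± 105 in CM (adjusted p = 0.0586, and 0.0393 without CM plus DTM 1). Traf6, the adaptor that carries the RANK signal, stood at 35.5 ± 3.84 and 43.0 ± 3.40 CPM (adjusted p = 0.402).

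Of 8 genes that hold back osteoclast differentiation, Tnfaip3 rose and Bcl6 fell in CM, where 4.04% of all genes rose and 1.57% fell. In CM 5 of the 8 had an unadjusted p under 0.05, against 3307 of all 15429 genes. DESeq2 called 2 higher and 1 lower, against 1263 and 674 of all genes. Without CM plus DTM 1 edgeR called 3 higher, against 1207 of all genes. Bcl6, a transcriptional repressor, stood at 75.0, 79.4 and 98.4 CPM in control, 42.5, 21.1 and 22.4 in CM and 13.3, 19.9 and 19.3 in CM plus DTM. Both treated groups lay below control in every library. The log2 fold change of Bcl6 was -1.55 (SE 0.30, adjusted p = 0.0189) for CM, while for CM plus DTM against control it was -2.27 (SE 0.31, adjusted p = 0.0123). Tnfaip3, which encodes the NF-kB inhibitor A20, rose by a log2 fold change of 0.95 (adjusted p = 0.0434) with CM and by 1.31 (adjusted p = 0.025) with CM plus DTM. Irf8, whose protein opposes NFATc1, stood at 222 ± 18.2 CPM in control, 348 ± 93.5 with CM and 264 ± 39.9 with CM plus DTM. By edgeR with all libraries Irf8 was not called, but in CM it was called without CM 1 (adjusted p = 0.0227), the only CM library within the control range. The calls in CM were lost for Bcl6 without control 1, 2 or 3 or CM 2 or 3 (adjusted p up to 0.0796) and for Tnfaip3 without any 1 library except CM 3 and CM plus DTM 1 (up to 0.189). In CM plus DTM that of Bcl6 was lost without control 1, 2 or 3 (up to 0.0639) and that of Tnfaip3 also without CM 2 or CM plus DTM 3 (up to 0.124). Of the 11 tested genes for ITAM co-stimulation and calcium signalling, the second signal that osteoclast precursors need, 0 were called in CM against control by edgeR (list median 0.23). In this list 2 had an unadjusted p under 0.05 and DESeq2 called 1, against 3307 and 1937 of all 15429 genes.

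The fusion genes had the lowest counts of the 9. Dcstamp, whose product lets precursors merge, had 64, 18 and 18 counts in control, 10, 26 and 26 in CM and 22, 43 and 24 in CM plus DTM. Ocstamp, its relative with the same role, had 60, 51 and 35 counts in control, 2, 34 and 43 in CM and 2, 37 and 55 in CM plus DTM. Both libraries with 2 counts were those that stood apart from their groups. The groups overlapped for Ocstamp with these libraries and also without them. On the CPM scale Dcstamp was 0.649 ± 0.534, 0.460 ± 0.228 and 0.673 ± 0.208, and Ocstamp 0.930 ± 0.239, 0.595 ± 0.488 and 0.672 ± 0.572. The log2 differences in CM against control were -0.50 (SE 0.65, adjusted p = 0.714) and -0.65 (SE 1.01, adjusted p = 0.764). Within groups the counts spread widely, as from 18 to 64 for Dcstamp in control and from 2 to 43 for Ocstamp in CM. The difference of Dcstamp changed sign to 0.43 without control 1, the library with 64 counts.

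Of the 10 tested genes for fusion and adhesion, 0 rose and 2 fell in CM, where 1.57% of all genes fell, with a median log2 fold change of -0.31. DESeq2 called 2 higher and 2 lower, against 1263 and 674 of all 15429 genes. An unadjusted p under 0.05 was reached by 4, against 3307 of all genes. The integrin gene Itgb5 fell from 551 ± 118 to 179 ± 7.89 CPM (log2 fold change -1.62, adjusted p = 0.00287). Sh3pxd2a, which encodes a scaffold of the podosomes by which macrophages and osteoclasts adhere, fell from 55.3 ± 3.88 to 16.2 ± 5.34 CPM (-1.77, adjusted p = 0.00694). Both calls held whichever of the 9 libraries was left out. Itgb3, the integrin chain that pairs with that of Itgav in mature osteoclasts, stood at 5.76 ± 2.50 CPM in control, 4.20 ± 3.82 in CM and 2.70 ± 0.871 in CM plus DTM.

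The largest fold change among the 9 genes was that of a proton pump subunit. Atp6v0d2 encodes the d2 subunit of the membrane sector of the V-ATPase, the form enriched in osteoclasts. It stood at 20.7, 26.0 and 29.0 CPM in control, 328, 159.6 and 160.3 in CM and 98.7, 84.9 and 105 in CM plus DTM, so no groups overlapped and CM 1 was the highest library. The means were 25.2 ± 4.21, 216 ± 97.2 and 96.1 ± 10.1 CPM. It rose 8.57-fold in CM (log2 fold change 3.10, SE 0.31, adjusted p = 0.00146), and the call held whichever of the 9 libraries was left out, with a log2 fold change of 2.67 without CM 1. Within CM, library CM 1 was lowest for the mesenchymal list and for the 9 neutrophil genes other than Mmp8. The part of such cells in the level of Atp6v0d2 was not tested.

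Tcirg1 encodes the a3 subunit, which directs the pump to the ruffled border of osteoclasts and to secretory lysosomes. It stood at 268, 236 and 242 CPM in control, 715, 489.9 and 537 in CM and 347, 383 and 353 in CM plus DTM. The groups did not overlap, with CM highest and CM plus DTM between. It rose 2.34-fold in CM (log2 fold change 1.22, SE 0.17, adjusted p = 0.00535), a call that held whichever of the 9 libraries was left out.

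Clcn7, the chloride-proton exchanger that balances the charge moved by the pump, stood at 149, 145 and 131 CPM in control, 349, 225 and 212 in CM and 111, 169 and 131 in CM plus DTM. Every CM library lay above every library of both other groups, while CM plus DTM overlapped control. Its log2 difference in CM was 0.89 (SE 0.23, adjusted p = 0.0585), just short of the threshold, and it was called without CM plus DTM 1 (adjusted p = 0.0271), by DESeq2 (adjusted p = 0.00859) and in a fit of the 2 groups alone (adjusted p = 0.0403). Ostm1, the partner protein of this exchanger, stood at 70.2 ± 3.71, 89.3 ± 3.11 and 83.3 ± 11.7 CPM and was not called (adjusted p = 0.212 for CM). Car2, carbonic anhydrase II, which supplies the protons in osteoclasts, had 0 to 8 counts in control, 8, 67 and 46 in CM and 12 to 22 in CM plus DTM. Its log2 difference in CM was 3.27 (SE 1.02, adjusted p = 0.103), and it was called without CM 1 (adjusted p = 0.0444). Of the 12 genes for chloride transport, proton supply and the ruffled border 0 were called in CM by edgeR, with a median log2 fold change of 0.41. In this list 4 had an unadjusted p under 0.05 and DESeq2 called 1, against 3307 and 1937 of all 15429 genes.

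**Figure D2:**
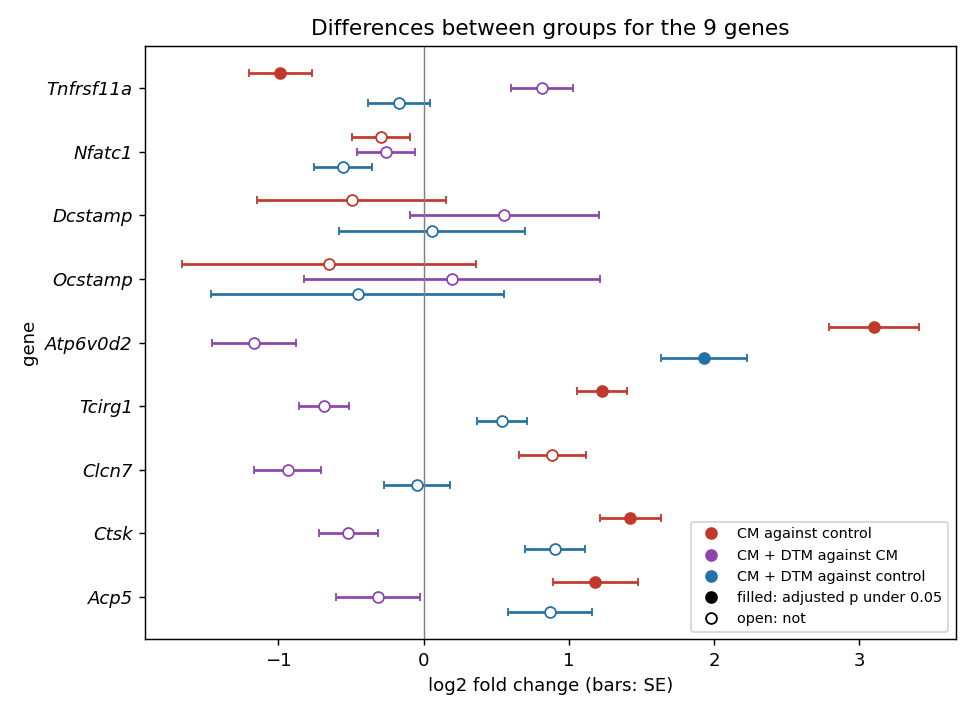
Log2 fold change with its SE for the 9 genes in the 3 comparisons, filled where the adjusted p was under 0.05. Of the comparisons with control, Atp6v0d2 was called in both (3.10 and 1.93), and no gene was called in CM plus DTM against CM.

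The remaining V-ATPase subunits differed less between CM and control. Of 18 tested, 1 rose, near the 4.04% of all genes, and 0 fell, with a median log2 fold change of 0.38 against 3.10 for Atp6v0d2 and 1.22 for Tcirg1. Without overlap 10 of the 18 were higher, against 18.3% of all genes. Of the 18, 5 had an unadjusted p under 0.05, against 3307 of all 15429 genes, and DESeq2 called 3 higher, against 1263. By edgeR 6 were higher without CM plus DTM 1 and 0 with total count scaling, against 1207 and 415 of all genes. The gene that rose was Atp6v1b2, a subunit of the catalytic sector, from 447 ± 49.2 to 732 ± 83.3 CPM (0.71, adjusted p = 0.0403), and that call was lost without control 1, 2 or 3, CM 2 or 3 or CM plus DTM 3 (adjusted p up to 0.177). Atp6v0d1, the d subunit that cells in general use, stood at 233 ± 1.70 CPM in control, 304 ± 16.8 in CM and 363 ± 9.15 in CM plus DTM. Its log2 difference was 0.38 (SE 0.12, adjusted p = 0.112) for CM, while it rose by 0.64 with CM plus DTM relative to control (SE 0.12, adjusted p = 0.0348), a call lost without control 1, 2 or 3, CM 2 or 3 or CM plus DTM 3 (up to 0.174). Atp6v0a1, another a subunit, stood at 111 ± 2.24, 171 ± 16.0 and 82.9 ± 49.2 CPM, with CM plus DTM 1 alone at 26.4. Without CM plus DTM 1, edgeR called both Atp6v0d1 and Atp6v0a1 in CM against control (adjusted p = 0.045 and 0.0122).

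**Figure D3:**
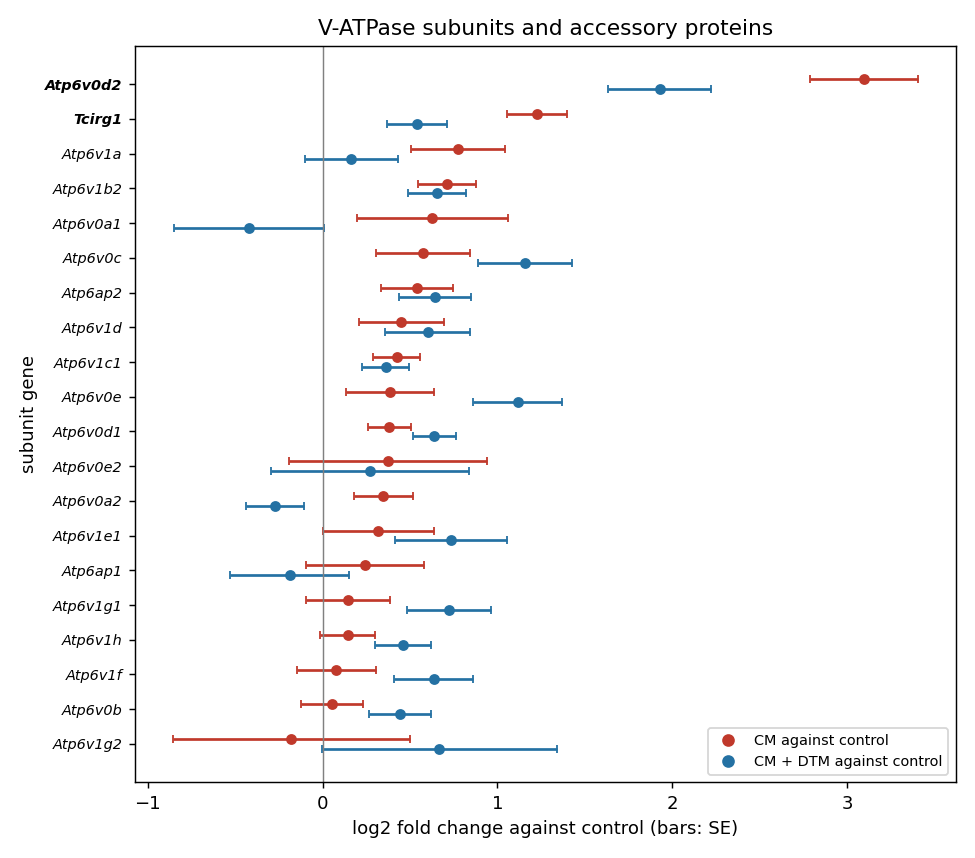
Log2 fold change against control, with SE, of the 18 other V-ATPase subunit and accessory genes tested and of Atp6v0d2 and Tcirg1 (bold), for CM and for CM plus DTM. Atp6v0d2 (3.10) and Tcirg1 (1.22) lie right of the rest in CM, whereas in CM plus DTM Tcirg1 (0.54) lies among them.

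Because subunits of a pump replace one another, their shares were taken within each library from levels per kb of exon. Atp6v0d2 made up 5.51%, 6.83% and 7.64% of the d subunits in control, 43.0%, 25.8% and 24.8% in CM and 15.6%, 13.2% and 15.8% in CM plus DTM. These shares did not overlap between groups, and the mean was 6.66 ± 1.08%, 31.2 ± 10.2% and 14.9 ± 1.40%. Tcirg1 made up 71.3%, 68.7% and 68.9% of the a subunits in control, 82.2%, 74.0% and 78.2% in CM and 88.9%, 77.7% and 78.6% in CM plus DTM. Both treated groups lay above control and overlapped each other. The ratio of Tcirg1 to Clcn7 per kb was 1.87 to 2.11 in control, 2.35 to 2.91 in CM and up to 3.59 in CM plus DTM. CM plus DTM 1 and 3 lay above every CM library, CM plus DTM 2 lay within the CM range, and both treated groups lay above control.

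**Figure D4:**
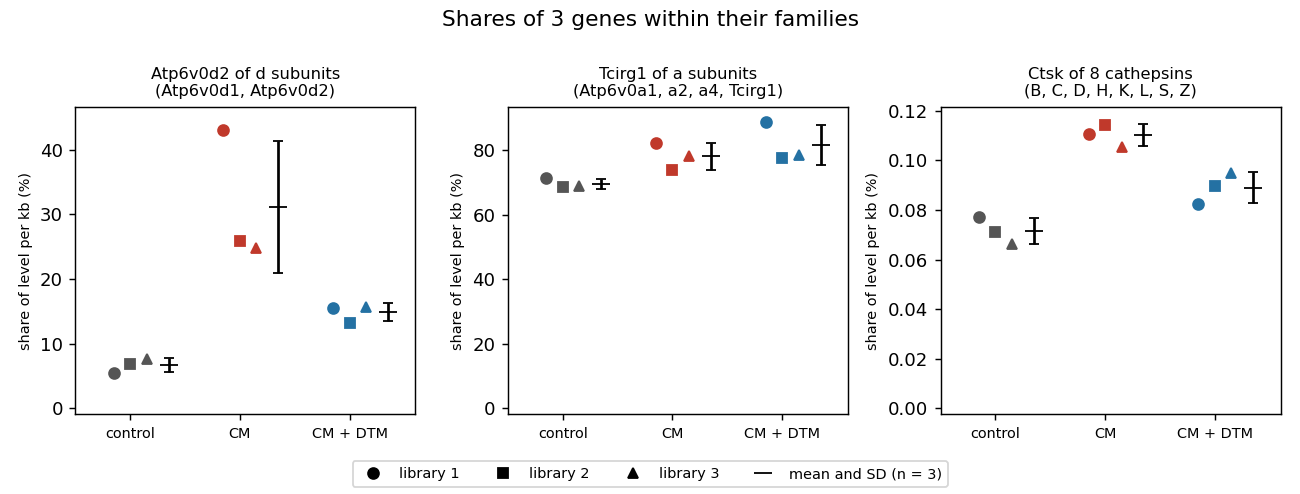
Share of Atp6v0d2 among d subunits, of Tcirg1 among a subunits and of Ctsk among 8 cathepsins, each from levels per kb of exon (percent, axes from 0), by library, with the group mean and SD. Atp6v0d2 went from a mean of 6.66% in control to 31.2% in CM and 14.9% in CM plus DTM, while Ctsk was at most 0.114% of the cathepsins in any library.

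Of the secreted enzymes, Ctsk encodes cathepsin K, the protease with which osteoclasts digest collagen. It stood at 13.1, 9.26 and 8.75 CPM in control, 23.9, 30.3 and 29.2 in CM and 21.1, 18.5 and 18.6 in CM plus DTM, with no overlap between any groups. It rose 2.68-fold in CM (log2 fold change 1.42, SE 0.21, adjusted p = 0.00618), and the call held whichever of the 9 libraries was left out. Unlike the pump genes, Ctsk was lowest within CM in CM 1, as Acp5 was (34.1 CPM). The mesenchymal list was lowest there too, and the part of such cells in these levels was not tested. Without CM 1 the log2 fold change of Ctsk was 1.52.

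Acp5 encodes tartrate-resistant acid phosphatase, the enzyme by which osteoclasts are stained. It stood at 25.4, 21.2 and 18.5 CPM in control, 34.1, 48.2 and 65.4 in CM and 53.7, 32.6 and 32.5 in CM plus DTM. Both treated groups lay above control in every library and overlapped each other. Its log2 fold change in CM was 1.18 (SE 0.29, adjusted p = 0.0498), right at the threshold. The call was lost with another scaling (adjusted p = 0.0518 and 0.0522), with other count filters (0.0568 and 0.05) and when control 1, 2 or 3, CM 2 or 3 or CM plus DTM 2 or 3 was left out (0.0595 to 0.18). In the annotation of GRCm38, Acp5 was the only one of the 9 genes to share exon sequence with another gene, 6530413G14Rik on the opposite strand, and without a stated strand setting their reads cannot be told apart.

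Of 14 other proteases and lysosomal enzymes, 2 rose and 0 fell in CM, where 4.04% of all genes rose and 1.57% fell. The median log2 fold change of the list was 0.53. In this list 8 were higher without overlap, against 18.3% of all genes. An unadjusted p under 0.05 was reached by 8, against 3307 of all 15429 genes. DESeq2 called 7 higher and 0 lower, against 1263 and 674 of all genes. By edgeR 6 were higher without CM plus DTM 1, 4 without CM 1, and 1 without any 1 of the other 7 libraries. Of all genes 1207 were called higher without CM plus DTM 1 and 607 without CM 1, against 623 with all libraries. Ctsz, a cathepsin, rose from 872 ± 32.2 to 1975 ± 124 CPM (1.18, adjusted p = 0.00294), a call that held whichever of the 9 libraries was left out. Ctsl, cathepsin L, rose from 1849 ± 347 to 4553 ± 1742 CPM (1.30, adjusted p = 0.0434), a call lost without control 1, 2 or 3, CM 2 or 3 or CM plus DTM 2 or 3 (up to 0.183). Mmp9, the gelatinase of osteoclasts, averaged 16.5 ± 10.9 CPM in control against 19.2 ± 6.44 in CM (adjusted p = 0.86). Cathepsin K stayed a small part of the family: per kb, Ctsk was 0.0664% to 0.0772% of the sum over 8 cathepsins in control, 0.106% to 0.114% in CM and 0.0823% to 0.0948% in CM plus DTM.

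Per kb of exon the order of the genes changed with CM. In control it ran from Tcirg1 (54.0 CPM per kb) through Clcn7 (26.8), Tnfrsf11a (14.6), Acp5 (10.7), Atp6v0d2 (9.29), Nfatc1 (8.57) and Ctsk (6.86) to Ocstamp (0.254) and Dcstamp (0.243). The ranges of Acp5 to Ctsk each overlapped the next, as did those of the fusion genes. In CM, Atp6v0d2 (79.5 CPM per kb) was next to Tcirg1 (126), and the ranges of these and of Atp6v0d2 and Clcn7 (49.6) overlapped, followed by Acp5 (24.2) and Ctsk (18.4), which overlapped each other, and Tnfrsf11a (7.35) and Nfatc1 (6.99), which did too. Within each CM library, however, Tcirg1 led Atp6v0d2, Atp6v0d2 led Clcn7 and Acp5 led Ctsk, whereas Nfatc1 led Tnfrsf11a in CM 1. In CM plus DTM, Tcirg1 (78.4) led Atp6v0d2 (35.4), and the ranges of Atp6v0d2, Clcn7 (25.9), Acp5 (19.5), Tnfrsf11a (12.9) and Ctsk (12.8) each overlapped the next.

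The next question was the effect of DTM on top of CM, read from CM plus DTM against CM. None of the 9 genes passed the test. The levels of 4 of them, Atp6v0d2, Tcirg1, Clcn7 and Ctsk, were lower in every CM plus DTM library than in every CM library, and that of Tnfrsf11a was higher. Among all genes tested 17.8% were lower without overlap and 16.7% higher. By edgeR 0 of 15429 genes were called, which is 0%, although 4372 genes, 5 of the 9 among them, had an unadjusted p under 0.05, and DESeq2 called 2828 genes and 4 of the 9. The median log2 difference of the 9 genes was -0.31 and that of all genes -0.03. The former was -0.51 without CM 1, -0.63 without CM plus DTM 1 and -0.47 without CM plus DTM 3.

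Atp6v0d2 was at 0.445 times its CM level (log2 difference -1.17, SE 0.29, adjusted p = 0.0615). Clcn7 was at 0.523 times (-0.93, SE 0.23, adjusted p = 0.0615) and Tcirg1 at 0.622 times (-0.69, SE 0.17, adjusted p = 0.0615). Ctsk was at 0.698 times (-0.52, SE 0.21, adjusted p = 0.138) and Acp5 at 0.805 times (-0.31, SE 0.29, adjusted p = 0.505). Tnfrsf11a was at 1.76 times its CM level (0.81, SE 0.21, adjusted p = 0.0647). The sizes for Atp6v0d2, Tcirg1 and Clcn7 rest in part on CM 1, the highest library for each, and without it they were -0.74, -0.51 and -0.68 (adjusted p = 0.114, 0.121 and 0.124).

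By DESeq2 the 4 called genes were Tnfrsf11a, higher (adjusted p = 0.0112), and Atp6v0d2, Tcirg1 and Clcn7, lower (0.00578, 0.00527 and 0.00559). Without CM plus DTM 2, edgeR called Tnfrsf11a (0.97, adjusted p = 0.0316) and Clcn7 (-1.10, adjusted p = 0.0313), in a fit in which 1876 genes of any kind were called. With CM 1 and CM plus DTM 1 both left out it called Atp6v0d2 (-0.81, adjusted p = 0.0478), beside 776 genes of any kind. In CM plus DTM the mesenchymal list summed to 554 to 683 CPM, against 509.7 and 536 in CM 2 and 3, and its part in these differences was not tested.

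Of the 7 other lists edgeR called 0 genes here, as in the whole table, while 1 to 6 genes per list had an unadjusted p under 0.05. DESeq2 called 1 gene in each list, lower, except the RANK axis with 3. Over all 15429 genes 4372 had such a p and DESeq2 called 1341 lower. The median log2 difference was -0.43 for the genes of chloride transport, proton supply and ruffled border and 0.20 for the other V-ATPase subunits, where 11 of the 18 subunits lay above the median of all genes and 7 below it. It was -0.25 for the RANK axis, -0.39 for the repressors, 0.13 for ITAM co-stimulation, -0.12 for fusion and adhesion and -0.08 for the other proteases. The integrin gene Itgav, at 32.4 ± 6.25 CPM with CM and 14.7 ± 6.87 with CM plus DTM, had adjusted p = 0.0685, and 0.0247 without CM plus DTM 2.

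CM plus DTM against control asked what remained of the change when DTM was present, and it shares its control libraries with the first comparison and its treated libraries with the second. Of the 9 genes Atp6v0d2 alone was called, where 2.45% of all genes tested were. Upward it was 1 of 9 against 1.5% of all genes, and downward 0 of 9 against 0.946%. An unadjusted p under 0.05 was reached by 5 of the 9, of which Nfatc1 was lower, against 3762 of all 15429 genes. DESeq2 called 3, all upward, where it called 1159 of all genes upward and 822 downward. Atp6v0d2 rose 3.81-fold (log2 fold change 1.93, SE 0.30, adjusted p = 0.0184), and the call was lost without control 1, 2 or 3 or CM plus DTM 3 (adjusted p = 0.0508 to 0.0931). Ctsk (0.90, SE 0.21, adjusted p = 0.0562), Acp5 (0.87, SE 0.29, adjusted p = 0.124) and Tcirg1 (0.54, SE 0.17, adjusted p = 0.112) were higher in every library without passing. With Atp6v0d2 this makes 4 of 9 higher without overlap, where 16.7% of all genes were. Nfatc1 (-0.55, SE 0.20, adjusted p = 0.144) was lower in every library, 1 of 9 where 17.8% of all genes were. Ctsk was called without CM 1 (adjusted p = 0.0433) or CM plus DTM 2 (0.0383), and by DESeq2 Ctsk (0.00115) and Tcirg1 (0.0352) were called as well. Clcn7 (-0.05, SE 0.23, adjusted p = 0.919) and Tnfrsf11a (-0.17, SE 0.21, adjusted p = 0.654) differed from control by less than their SE. The median log2 difference of the 9 genes was 0.06 and that of all genes tested 0.01. Its sign was not stable: it was 0.59 without control 1, -0.05 without control 2, -0.10 without control 3, 0.12, -0.0097 and 0.25 without CM plus DTM 1, 2 and 3, and -0.13 with total count scaling.

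In the other lists, 3 of 10 fusion and adhesion genes fell in CM plus DTM against control, where 0.946% of all genes did: Itgav (-1.82, adjusted p = 0.025), Itgb5 (-1.29, adjusted p = 0.0172) and Sh3pxd2a (-1.51, adjusted p = 0.0251). DESeq2 called 3 lower and also 2 higher in this list, against 822 and 1159 of all 15429 genes. Over all genes 3762 had an unadjusted p under 0.05, and edgeR called 1.5% higher. The edgeR calls were lost without control 1, 2 or 3 or CM plus DTM 3, those of Itgav also without CM 2 or 3 and of Sh3pxd2a also without CM 3 or CM plus DTM 1 (adjusted p up to 0.104). Of 14 other proteases, where 7 had an unadjusted p under 0.05 and DESeq2 called 4 higher, edgeR called Ctsz alone (0.77, adjusted p = 0.0302), a call lost without control 1, 2 or 3, CM 2 or 3 or CM plus DTM 3 (up to 0.166). Of the 18 other V-ATPase subunits 1 was called higher by edgeR (Atp6v0d1) and 4 by DESeq2, 12 had an unadjusted p under 0.05, and the median log2 difference was 0.62. Without CM plus DTM 2 edgeR called 6 higher, against 1082 of all genes. It called 0 without any 1 of the controls, where 15 to 41 of all genes were called higher. The RANK axis, ITAM and chloride transport lists had 0 calls by edgeR, with 5, 1 and 2 genes at an unadjusted p under 0.05 and 3, 1 and 0 called by DESeq2. Total count scaling ended the calls of Atp6v1b2, Ctsl and Tnfaip3 with CM (adjusted p = 0.125, 0.065 and 0.105) and of Atp6v0d1, Ctsz and Tnfaip3 for CM plus DTM against control (0.141, 0.0967 and 0.054), and fits of the compared groups alone ended those of Ctsl (0.0517), Ctsz (0.0662), Atp6v0d1 (0.0728), Itgav (0.0681) and Itgb5 (0.0569), the last 4 in CM plus DTM.

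The genes whose profile over the 9 libraries was most like that of each of the 9 were found by the root mean square difference of centred log2 CPM among 9421 or 9422 candidates whose mean reached 5 CPM. For Atp6v0d2 they were Fabp4 (0.184), a fatty acid binding protein, and Gda (0.296), against a median of 1.36 over these genes. For Tcirg1 they were Uba7 (0.102) and Pld3 (0.129), for Clcn7 Plin3 (0.118) and Lzts2 (0.142), for Ctsk Mfhas1 (0.141) and Slc15a3 (0.179), and for Acp5 Parp10 (0.175) and Npc2 (0.182). Tnfrsf11a was closest to Clec12a (0.124), an inhibitory lectin receptor, and Arrb2 (0.153), and Nfatc1 to Lrch4 (0.0767) and Rassf3 (0.0781). For the scarce fusion genes the nearest profiles were further off, at 0.349 for Dcstamp (Fbln2) and 0.374 for Ocstamp (Bcat1). Among the 9 genes themselves the closest pairs were Ctsk with Acp5 (0.255) and Tcirg1 with Clcn7 (0.286), whereas Atp6v0d2 was 0.801 from its nearest, Ctsk. These distances are descriptions over libraries that share group and depth.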

How the data were processed

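The deposited values were whole-number counts for each gene symbol in each library. Per the labels' protocols the authors isolated RNA with TRIzol, used an mRNA library kit and sequenced with DNBSEQ-T7. CPM divide counts by effective library size. The submitters' processing notes name HISAT2 2.1.0, Trimmomatic 0.36, DESeq2 1.12.4 and FastQC 0.11.2, beside the builds mm39 and GRCh38, with no role for either. Counting program, annotation and strand setting are not given in the sources used here.

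Genes were kept by filterByExpr (minimum count 10), which left 15429 of 51826 rows, and scaled by TMM. Depth was 43084296 to 50407973 counts. All 9 libraries entered 1 fit by group in edgeR 4.0.16 (R 4.3.3, glmQLFit at its default, glmQLFTest), with Benjamini-Hochberg adjustment over all genes tested and a threshold of 0.05. The SE was the size of the log2 fold change over the square root of F. Libraries of 1 group differed by a chi-square of 26.6 to 448 per degree of freedom, so none repeated another. Levels per kb used the union of exons of each symbol in GENCODE vM21 (GRCm38). Promoters were matched by symbol in the RefSeq table, where 5 of 9 genes had an entry.

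The 9 genes, the 7 pathway lists and the 6 marker lists were chosen with earlier results of these data known. Beside the 9 genes the text names 12 fixed partners and, per list, up to 4 called genes averaging 1 CPM or more, by smallest adjusted p, and for likeness the nearest genes averaging 5 CPM or more. The code was tested on simulated data. Alternatives were DESeq2 1.42.0, other scaling, other filters, another edgeR setting, fits of 2 groups, the library number as a block and libraries left out.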

Additional observations from a re-analysis of the deposited data

How the results depend on the processing

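The calls of Atp6v0d2, Tcirg1 and Ctsk in CM against control held in every alternative run. The number of the 9 genes called there was 3 with the library number as a replicate block, which lost Tnfrsf11a (adjusted p = 0.0641) and Acp5 (0.0884), and 3 to 6 over fits lacking 1 library. The numbers pair no samples by the labels, and the correlations of same-numbered libraries' deviations ran from -0.044 to 0.297; under the block 149 genes of any kind were called for CM plus DTM against control. For CM plus DTM relative to CM the number of the 9 called was 4 by DESeq2, 1 without CM 1 and CM plus DTM 1, and 0 to 2 over the fits lacking 1 library, and in CM plus DTM against control it was 3, 3 and 0 to 2.

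Over all genes, in the order of the comparisons above, DESeq2 called 1937, 2828 and 1981, fits of 2 groups 1360, 1 and 118, the fit without both libraries 2503, 776 and 1311, and fits lacking 1 library 256 to 1884, 0 to 1876 and 15 to 1766. In CM plus DTM against CM, total count scaling called 1 gene and legacy = FALSE called 6. Signs changed for differences that were not called. With total count scaling these were, in CM plus DTM against control, Dcstamp (-0.13), Irf8 (-0.0034), Ostm1 (-0.0087) and Mmp9 (-0.16). Without both libraries they were Tnfsf11 (-0.74) and Itgb3 (0.088) against CM, and Ocstamp (0.056), Clcn7 (0.065) and Mmp9 (-0.27) against control. Over the fits lacking 1 library, CM against control ran from -0.87 to 0.43 for Dcstamp and -0.10 to 0.90 for Mmp9. CM plus DTM against CM ran from -0.47 to 0.72 for Ocstamp, -0.41 to 0.64 for Tnfsf11, -0.98 to 0.43 for Itgb3, -0.15 to 0.017 for Atp6v1b2 and -0.53 to 0.24 for Mmp9. CM plus DTM against control ran from -0.30 to 0.98 for Dcstamp, -1.11 to 0.056 for Ocstamp, -0.21 to 0.065 for Clcn7, -0.22 to 0.053 for Traf6 and -0.27 to 0.76 for Mmp9. The block also ended the CM calls of Atp6v1b2 (0.072), Tnfaip3 (0.083) and Ctsl (0.0847) and, for CM plus DTM against control, those of Itgb5 (0.051), Sh3pxd2a (0.055), Tnfaip3 (0.0601), Ctsz (0.0709) and Atp6v0d1 (0.076). Without a count filter those of Atp6v1b2 (0.0563), Tnfaip3 (0.059) and, with DTM, Atp6v0d1 (0.0864) were lost. The cause of these changes was not tested. The fusion genes had 2 to 64 counts per library and spread widely within groups.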
